A study of Mus musculus with 8 samples.

Results

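The data described here are the cytosines listed for 5-carboxylcytosine (5caC) in Tdg knockout mouse embryonic stem cells, restricted to those with 100 or fewer reads over the 2 libraries compared. The limit kept 4712 of the 4806 listed cytosines (98.0%) and set aside 94 deeper ones. Over the whole series, 12019 cytosines were listed for 5caC and 5-formylcytosine (5fC). The study made 8 libraries, 1 for each combination of Tdg genotype, antibody and treatment. Both libraries compared here came from Tdg -/- cells of the strain given as C57BL/6-ICR, grown without feeder cells in serum with LIF. Their sheared genomic DNA had been captured with antiserum to 5caC. One was treated with bisulfite alone. In the other, 5caC was first activated with EDC and NHS and coupled to (4-aminomethyl)benzylazide, which keeps it from being read as T after bisulfite. The sources used here do not say how many knockout clones gave the DNA. The lists hold no expression values, so the cell type could not be checked against marker genes.

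TET enzymes oxidise 5-methylcytosine (5mC) stepwise to 5-hydroxymethylcytosine (5hmC), 5fC and 5caC. The DNA glycosylase TDG removes 5fC and 5caC, and base excision repair then restores an unmodified cytosine, so cells without TDG are used to make these otherwise scarce bases measurable. Ordinary bisulfite reads 5mC and 5hmC as C, and reads cytosine, 5fC and 5caC as T. The bisulfite-only level, the share of unconverted (C) reads without protection, is therefore a measure of 5mC plus 5hmC in the captured DNA. The protected level adds 5caC to it, and the rise from the first to the second is the measured 5caC. All 3 describe the antibody-captured fraction of the genome rather than the cells' whole DNA, and they depend on the yields of capture and protection.

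There was 1 library on each side, so every test compares the reads of 2 libraries and no spread between samples exists. The 4712 cytosines carried 105623 protected and 70198 bisulfite-only reads. A single cytosine had 10 to 72 protected reads (median 20) and 10 to 54 bisulfite-only reads (median 13). Every listed cytosine had a p below 0.05 by Fisher's exact test and a higher protected level, so the background of calls in the list is 100% and listing itself is no finding. A deposited p below 0.01 was reached by 1692 of the 4712 (35.9%), against 36.1% of the whole list. Just inside the limit of 100 reads, position 7:151977827 (plus strand, mm9) had 34 of 56 protected reads unconverted and 12 of 44 bisulfite-only reads. Just outside, with 102 reads, position 15:80425512 (minus strand) had 40 of 62 and 3 of 40. The 94 cytosines set aside rose by 17.9 percentage points in the median, from a median bisulfite-only level of 25.9%.

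Most of the listed 5caC cytosines had a low bisulfite-only level in the captured DNA. Listing asks for a rise, and high levels leave less room for it, so the rule bears on the shares given here. The bisulfite-only level was 0 at 1351 cytosines (28.7%), above 0 and under 20% at 1804 (38.3%), 20 to under 50% at 1104 (23.4%) and 50% or more at 453 (9.61%). Among cytosines with 20 or more reads in each library 13.9% had a level of 0, and among those with a deposited p below 0.01 3.61% stood at 50% or more. The second share is bound by the filter, since a lower p asks for a larger rise and high levels leave less room for it. A bisulfite-only level under 20% was found at 3155 of the 4712 (67.0%). At 1716 of all cytosines (36.4%) a level under 20% met a protected level of 50% or more.

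The protected level was higher in each higher class, which the listing rule fixes in part. To be listed, a cytosine's protected level must exceed its bisulfite-only level by enough to reach p below 0.05. The counts of cytosines without a converted protected read are bound in the same way. Where no bisulfite-only read was unconverted, the median protected level was 43.8% (quartiles 37.5 and 52.9), and 869 of the 1351 cytosines (64.3%, exact 95% interval 61.7 to 66.9) stayed under 50%. Only 1 of them had no converted read left. In the class above 0 and under 20% the median protected level was 54.5%, and in the class of 20 to under 50% it was 75.0%. Among the 453 cytosines at 50% or more, 228 (50.3%, interval 45.6 to 55.0) had no converted read with protection. Of the 259 cytosines without a converted protected read, 228 (88.0%) already had a bisulfite-only level of 50% or more and 3 (1.16%) had one under 20%. Intervals of shares treat cytosines as independent and cover counting error only, as do all single-site intervals, since molecular identifiers are not mentioned and reads may be copies.

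The rise itself varied little between the first 3 classes, with medians of 43.8, 43.7 and 44.3 percentage points, and was 33.3 points in the highest class, where at most 50 points were left to gain. Set against the reads that bisulfite alone converted, the share that became C with protection had a median of 43.8% where the bisulfite-only level was 0 (95% order-statistic interval 42.9 to 45.0). It was 49.1% (48.4 to 49.8) in the class under 20%, 63.9% (63.1 to 65.3) in the class of 20 to under 50%, and 100% (89.2 to 100) in the highest. The listing rule shaped this sequence. For each cytosine, the smallest listable rise was computed with its 4 read margins fixed, so the total of unconverted reads stayed the same. The class medians of this rise were 40, 40.1, 43.1 and 33.3 points. Each unconverted read taken from the protected library was given to the bisulfite-only library. It is therefore not the smallest rise listable at the observed bisulfite-only count, and a cytosine at this minimum can have a p well below 0.05. The observed reads stood exactly at that minimum at 68.5% of cytosines with no unconverted bisulfite-only read, 69.3%, 84.2% and, in the highest class, 95.4% (432 of 453). Protected C counts of 3 or more reads above the minimum occurred at 96 cytosines (2.04%), of which 66 had a bisulfite-only level above 0 and under 20%, 25 had a level of 0, and none was in the highest class.

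**Figure D1:**
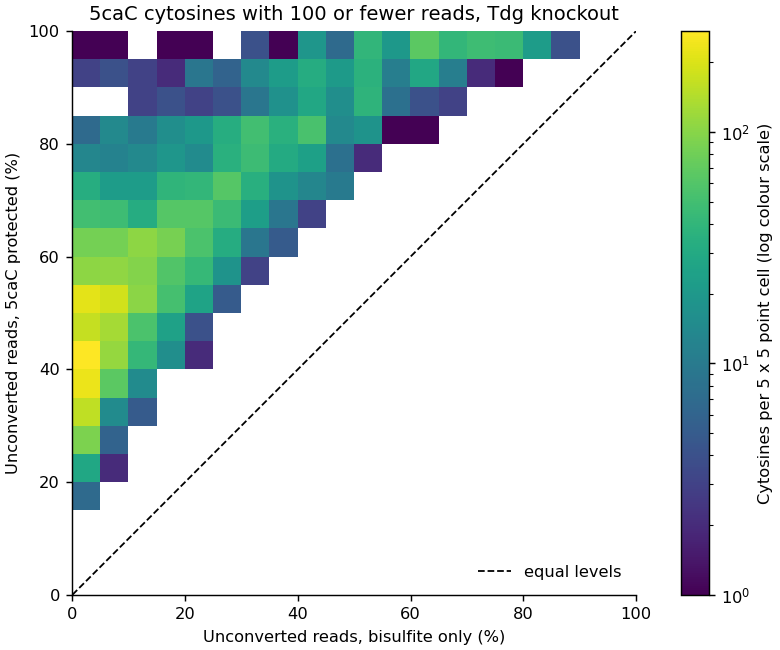
Joint distribution of the bisulfite-only level (x axis, % unconverted reads) and the protected level (y axis, %) of the 4712 cytosines, as counts in cells of 5 by 5 points on a log colour scale, with a dashed line at equal levels. The fullest cells lie at the left edge, below a protected level of 60%. The top row, at 95% or more with protection, fills towards bisulfite-only levels of 50% and more. The empty band above the dashed line is left by the listing rule.

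Read depth moved with the class. Cytosines without an unconverted bisulfite-only read made up 35.3% of those with 20 to 25 reads, 31.0% with 26 to 40, 23.5% with 41 to 60 and 12.6% with 61 to 100. The class above 0 and under 20% grew over the same steps from 29.4% to 53.7%, while the share at 50% or more stayed between 7.41% and 11.6%. With 10 bisulfite-only reads, a count of 0 still allows a level of up to 30%, taken as 3 counts of the total, so a level of 0 at low depth is not a measured absence of 5mC and 5hmC. Among the 683 cytosines with 20 or more reads in each library, the median bisulfite-only level was 13.0%, the median protected level 50% and the median rise 32.1 points. Counting error came to 21.9% of the variance of the bisulfite-only level and 29.4% of that of the protected level over the 4712 cytosines, whose standard deviations were 19.5 and 19.4 points.

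The deepest cytosines of each class show the forms that the joint distribution takes. They are named on the mm9 build by position, as no gene or sequence of that build was used here. At 6:28698458 (plus strand) 0 of 29 bisulfite-only reads were unconverted, which allows up to 10.3% by the limit of 3 counts (11.9% as the exact 95% upper limit), and 18 of 67 protected reads were (26.9%, exact 95% interval 16.8 to 39.1). Here protection turned a minority of reads to C, and no unconverted read had been present before it. At 2:102984201 (plus strand) the counts were 3 of 27 and 35 of 72 (48.6%, interval 36.7 to 60.7). At 13:46746843 (plus strand), also on the 5fC list, 11 of 29 bisulfite-only reads and 41 of 66 protected reads were unconverted. These 2 cytosines had unconverted reads before protection and more of them after it. At 11:3050208 (minus strand) 31 of 37 bisulfite-only reads (83.8%) and 59 of 59 protected reads were unconverted, a rise of 16.2 points.

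The 5 cytosines with the lowest p all had a bisulfite-only level under 5%, where the room for a rise is largest, so their low level is no separate finding. At 2:37603981 (plus strand) 0 of 17 bisulfite-only and 30 of 39 protected reads were unconverted (76.9%, interval 60.7 to 88.9), with a deposited Fisher's exact p of 3.19e-08, unadjusted. At 17:45861841 (plus strand) the counts were 0 of 20 and 32 of 47, and at 10:13644891 (plus strand) 0 of 24 and 28 of 44. The last is also on the 5fC list. On the minus strand of chromosome 12, position 33882300 gave 1 of 22 and 28 of 36. Only 15 bp away on the same strand, position 33882285 gave 5 of 25 and 31 of 70, a protected level of 44.3% against 77.8%.

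Of the 4712 cytosines, 297 (6.30%, interval 5.63 to 7.04) were also on the 5fC list, counted without a limit on 5fC reads. Their share was 4.15% (3.15 to 5.35) where the bisulfite-only level was 0, 7.98% (6.77 to 9.33) and 7.88% (6.36 to 9.63) in the middle classes, and 2.21% (1.06 to 4.02) at 50% or more. It also rose with depth, from 2.77% at 20 to 25 reads to 15.3% at 61 to 100. The 5fC list under the same limit of 100 reads held 6896 cytosines and filled the classes in another order, with 4.45%, 16.6%, 41.1% and 37.9% from the lowest bisulfite-only class to the highest. Antibody, chemistry and depth all differ between the lists, so this difference was not tested.

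Next, listed cytosines were compared with their neighbours. A second 5caC cytosine lay within 10 bp of 404 (8.57%), within 50 bp of 1131 (24.0%) and within 10000 bp of 2263 (48.0%). Joining cytosines at most 200 bp apart gave 3775 groups, of which 3067 were single cytosines, 546 were pairs and 162 held 3 to 7. The 36 pairs 1 bp apart were all on opposite strands, 35 of them with the plus strand first, as the cytosines of a CpG lie. From 2 bp on, close pairs lay mostly on 1 strand. Of 184 pairs 2 to 10 bp apart, 165 (89.7%) were on the same strand, as were 418 of 490 (85.3%) at 11 to 50 bp, 368 of 497 (74.0%) at 51 to 200 bp and 230 of 408 (56.4%) between 200 and 1000 bp. Beyond 1000000 bp on the same chromosome the share was 50.1%. Read totals followed the same course. Over same-strand pairs at 2 to 10 bp, Pearson's r of the reads was 0.96, and it was 0.72 at 11 to 50 bp and 0.37 at 51 to 200 bp. Over opposite-strand pairs it was 0.37 (19 pairs), -0.06 (72 pairs) and -0.07 (129 pairs). After bisulfite the strands of DNA are no longer complementary and are read from separate molecules, so close cytosines of 1 strand can share reads and those of opposite strands do not. The counts do not show single reads, and the part of shared reads in these values was not tested. All correlations here are over pairs taken in both orders and are descriptions without a p, since pairs share cytosines, reads and libraries.

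The bisulfite-only level was alike over about 50 bp and not beyond 200 bp. Over the 490 pairs 11 to 50 bp apart, r was 0.44 (Spearman's rho 0.33) and the median absolute difference was 8.33 points. At 51 to 200 bp r fell to 0.18 over 497 pairs, and the median difference was 12.5 points. Between 200 and 1000 bp r was -0.03 over 408 pairs, and between 10000 and 1000000 bp it was 0.00 over 19385 pairs. Opposite-strand pairs do not share reads, and their r was also positive up to 200 bp, over fewer pairs. It was 0.39 at 1 bp (36 pairs), 0.24 at 2 to 10 bp (19 pairs), 0.41 at 11 to 50 bp and 0.18 at 51 to 200 bp. Same-strand pairs had 0.50, 0.44 and 0.18 from 2 bp on. Without cytosines of the 5fC list, opposite-strand r was 0.21 at 1 bp (25 pairs) and 0.17 at 2 to 10 bp (15 pairs). It was 0.52 at 11 to 50 bp (58 pairs) and 0.18 at 51 to 200 bp (106 pairs). With 20 or more reads in each library, at most 8 opposite-strand pairs were left at each of these distances, too few to give a value. The part of shared reads in the likeness was not tested. Levels within 10 points of each other were found in 62.0% of pairs at 2 to 10 bp (interval 54.5 to 69.0), 59.6% at 11 to 50 bp (55.1 to 64.0), 43.7% at 51 to 200 bp (39.2 to 48.1) and 41.2% beyond 1000000 bp. The share was lowest, 29.2% (24.8 to 33.8), between 200 and 1000 bp. The paired cytosines of that distance had a median bisulfite-only level of 16.7% against 10.0% beyond 1000000 bp, and the part of this in the lower share was not tested.

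The protected level followed a like course, with r of 0.43 at 11 to 50 bp, 0.22 at 51 to 200 bp and -0.01 between 200 and 1000 bp. On opposite strands it was lower than on the same strand at each distance up to 200 bp, with 0.30 against 0.45 at 11 to 50 bp and 0.16 against 0.24 at 51 to 200 bp. For the rise, the measured 5caC, same-strand pairs had r of 0.31 at 2 to 10 bp and again at 11 to 50 bp, and opposite-strand pairs had 0.10 and 0.02. Since depth limits the smallest listed rise, pairs that share reads also share that limit, and the part of depth in the same-strand value was not separated. Among cytosines with 20 or more reads in each library, the r of the rise at 11 to 50 bp was 0.13 over 89 same-strand pairs, while that of the bisulfite-only level was 0.53. Only 8 opposite-strand pairs of that distance reached this depth, too few to give a value.

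**Figure D2:**
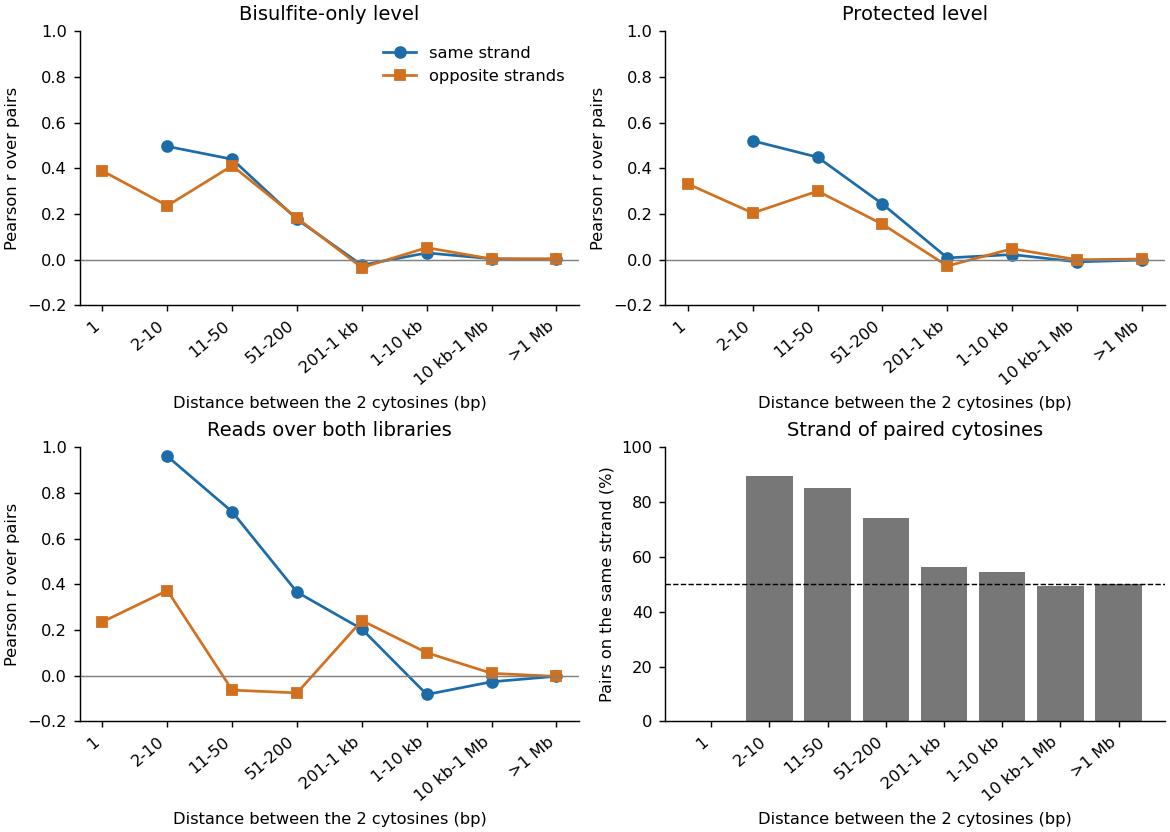
Likeness of pairs of 5caC cytosines by distance (x axis, bp) on the same strand (circles) and on opposite strands (squares), as Pearson's r of the bisulfite-only level, the protected level and the reads, with the percentage of pairs on the same strand in the last panel (bars, dashed line at 50%). Within 50 bp the r of the levels was positive on both kinds of pair, with few opposite-strand pairs. Reads were alike mainly on the same strand, with r of 0.96 at 2 to 10 bp.

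Unlike neighbours made up a smaller share of close pairs than of distant ones. Close pairs also held fewer cytosines at 50% or more. At least 1 was in 18 of 184 pairs at 2 to 10 bp and in 41 of 490 at 11 to 50 bp. Between 200 and 1000 bp it was 104 of 408 pairs, and beyond 1000000 bp 113703 of 609812. The part of this in the shares that follow was not tested. A cytosine at 50% or more beside one under 20% made up 2.72% of pairs at 2 to 10 bp, 2.86% at 11 to 50 bp, 7.85% at 51 to 200 bp, 15.4% between 200 and 1000 bp and 13.0% beyond 1000000 bp. Among 112 adjacent pairs at most 50 bp apart with 20 or more bisulfite-only reads at each cytosine, 67 differed by 10 points or less and the median difference was 9.32 points. The most unlike pair lay 47 bp apart on the minus strand of chromosome 2. Position 31172049 had 1 of 21 bisulfite-only and 24 of 41 protected reads unconverted, and position 31172096 had 21 of 24 and 47 of 47. Another pair lay 12 bp apart on the minus strand of chromosome 8, where 25554009 gave 13 of 24 and 26 of 32, and 25554021 gave 0 of 22 and 10 of 27. In both pairs a cytosine that read mostly as C without protection stood next to one that read mostly as T.

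A CpG carries a cytosine on each strand, 1 bp apart, and maintenance methylation keeps 5mC on both. Among the 4677 CpGs that the listed cytosines make up if each is a CpG, 35 (0.748%) had both cytosines listed. An unlisted partner is not shown to lack 5caC, since cytosines short of 10 reads in a library or of p below 0.05 are not in the list. In the 35 CpGs the bisulfite-only levels of the strands differed by 6.25 points in the median, with a highest difference of 32.1, and the protected levels by 12.5. In 26 of the 35 both strands were under 20%, and in none were both at 50% or more. Of all cytosines kept here, 67.0% stood under 20% and 9.61% at 50% or more. With so low a share, the lack of CpGs with both strands at 50% or more among 35 is no separate finding. In the 36 pairs 1 bp apart no cytosine was at 50% or more, and the median level was 7.42%. Pairs beyond 1000000 bp had a median level of 10% and a median difference of 14.3 points. The part of the low level in the small strand difference was not tested. At the CpG with the highest smaller read number, 7:71330049, the plus strand had 3 of 28 bisulfite-only and 26 of 50 protected reads unconverted, and the minus strand 5 of 26 and 25 of 49. Protection thus brought the strands to 52.0% and 51.02%. At 4:138350620 the strands had 1 of 13 and 3 of 42 without protection and 16 of 30 and 24 of 43 with it. The CpG at 2:168159933 had the largest difference, with 10 of 24 bisulfite-only reads unconverted on the plus strand and 2 of 21 on the minus strand, and 16 of 22 and 14 of 27 protected reads.

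Of the 162 groups of 3 or more, 93 (57.4%) lay wholly on 1 strand. In 59 (36.4%) every cytosine had a bisulfite-only level under 20%, in 1 every cytosine was at 50% or more, and in 24 (14.8%) cytosines under 20% stood with cytosines at 50% or more. The range of the bisulfite-only level within a group had a median of 21.0 points and reached 82.7. In the group with the most cytosines, 7 over 230 bp of chromosome 11 from 59063288, 6 on the plus strand and 1 on the minus strand, the bisulfite-only level ran from 9.09 to 75.0% and the protected level from 62.7 to 100%. Its 2 plus-strand neighbours at 59063509 and 59063517, 8 bp apart, stood at those ends, with 1 of 11 and 9 of 12 bisulfite-only reads unconverted. A tighter group of 6 on chromosome 3, from 9614922 to 9614962, had levels of 0 to 16.0% without protection and 17.1 to 44.7% with it, at 41 to 96 reads. Another group of 6, on chromosome 4 from 135182631 to 135182720, had 5.56 to 38.5% and 30.2 to 72.2%. Its rise was 23.3 to 50.97 points.

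Along the autosomes, the cytosines gathered in part of the genome. The 4693 autosomal cytosines fell into 2373 bins of 1 Mb between the first and last listed positions. No 5caC cytosine was in 1055 bins (44.5%, interval 42.4 to 46.5), 390 bins held 1, and 369 bins (15.5%) held 5 or more. These 369 bins contained 2747 cytosines (58.5%). The fullest 238 bins, the top 10 percent, contained 2074 (44.2%). The mean was 1.98 per bin and the variance 4.21 times the mean. Counting each 200 bp group once left this ratio at 3.13. An empty bin is not shown to lack 5caC, since cytosines that did not reach 10 reads in each library are not in the list.

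The numbers were regional, and no such likeness was seen in the levels, which could be compared over far fewer bins. Neighbouring bins held like numbers of cytosines, with r of 0.40 over 2354 pairs of adjacent bins (rho 0.38), 0.28 at 2 Mb, 0.14 at 5 Mb and 0.08 at 10 Mb. Over the 136 adjacent pairs in which both bins held 5 or more, r of the median bisulfite-only level was 0.01. These medians rest on as few as 5 cytosines of low depth and on another set of bins, so a regional likeness of levels is not excluded. Across the 369 bins with 5 or more cytosines, that median had a lowest value of 0, quartiles of 7.14 and 17.4% and a highest value of 48.8%. The median rise ran from 26.4 to 60 points. The median bisulfite-only level differed little with crowding. It was 10.0% for the 390 cytosines alone in their bin (interval 8.33 to 11.8) and 10.9% (10.0 to 13.3) for the 828 in bins of 10 or more, while the share with a level of 0 was lower in fuller bins, 33.1% and 25.5% at these ends. The median rise was 44.8 points (43.8 to 45.5) and 41.9 (40.9 to 43.3) in the same 2 sets, at median depths of 31 and 34 reads, and the part of depth in this was not tested. Numbers per bin followed those of 5fC (r = 0.72, rho = 0.68, 2373 bins), while in the 253 bins with 5 or more of each mark the median bisulfite-only levels had r of 0.12. In 246 of these 253 bins the 5fC median was the higher. The medians of the whole lists under the same limit of reads were 40% for 5fC and 10% for 5caC. The count of bins is therefore no separate finding, and antibody, chemistry and depth differ between the lists.

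**Figure D3:**
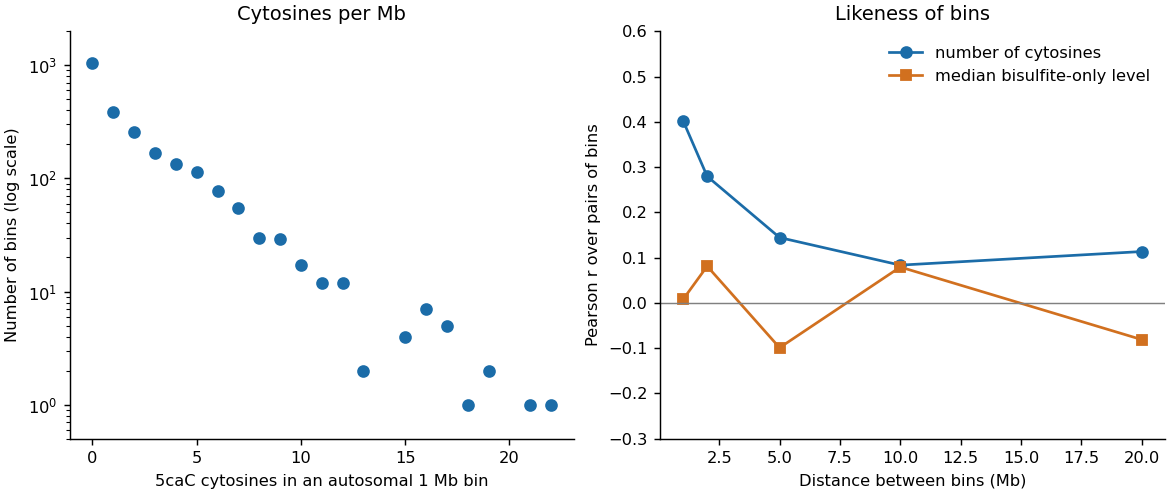
Left, number of autosomal 1 Mb bins (y axis, log scale) by the number of 5caC cytosines in the bin (x axis). Right, Pearson's r between bins by their distance (x axis, Mb) for the number of cytosines (circles) and for the median bisulfite-only level of bins with 5 or more (squares). In adjacent bins r was 0.40 for the number of cytosines (2354 pairs) and 0.01 for the median level (136 pairs).

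The fullest bin, from 135000001 to 136000000 on chromosome 1, held 22 cytosines in 13 groups, with 9 5fC cytosines of 100 or fewer reads. Its bisulfite-only levels ran from 0 to 57.1% (median 13.3), and its protected levels from 28.6 to 92.3%. On chromosome 19 the bins from 53000001 and from 45000001 held 21 and 19 cytosines, each in 14 groups, beside 21 and 27 5fC cytosines. Their median bisulfite-only levels were 14.3 and 23.1%. The bin from 172000001 on chromosome 2 held 18 in 15 groups, with a median of 27.9%, and 14 of the 18 were on the plus strand. No group in these bins had more than 4 cytosines, so their numbers did not come from a single cluster. The longest stretch without a 5caC cytosine was 13 Mb of chromosome 1, from 21000001 to 34000000, with 9 5fC cytosines, and on chromosome 7 the 11 Mb from 39000001 to 50000000 held no cytosine of either mark with 100 or fewer reads.

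The part of the chromosome far from the centromere held the most listed cytosines. The number of cytosines with 10 reads in each library, which could have been listed, is not known for any part. Mouse autosomes have their centromere at the start of the sequence. With the listed span of each autosome cut into 4 equal parts, the last part held 1931 of 4693 cytosines (41.1%, interval 39.7 to 42.6), against 871 (18.6%), 930 (19.8%) and 961 (20.5%) in the parts before it. With 1 cytosine per group the last part held 41.02%, and among cytosines with 20 or more reads in each library 37.6%. It was the fullest part on 12 of 19 autosomes. This number was 10 with 1 cytosine per group, and also 10 with 20 or more reads in each library. Over all autosomal cytosines the share of the last part ran from 24.3% on chromosome 17 to 67.8% on chromosome 4. Chromosome 16 had its largest share in the first part (45.3%) and chromosome 13 in the second (46.0%). The 5fC cytosines had 42.7% in the last part. The levels did not follow this gradient: the median bisulfite-only level was between 9.09 and 10% in all 4 parts, and the median rise between 42.3 and 43.3 points.

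The density of listed cytosines also differed between chromosomes, from 1.40 per Mb on chromosome 14 to 3.25 on chromosome 19. The number that could have been listed on each is not known. Counted as groups, it ran from 1.14 to 2.50 on the same chromosomes. The autosomes' median bisulfite-only levels lay between 8.33 and 13.3% and their median rises between 41.7 and 44.6 points. The share without an unconverted bisulfite-only read was lowest on chromosome 19 (19.9%) and highest on chromosome 15 (36.5%), and the share at 50% or more ran from 5.97% on chromosome 17 to 14.4% on chromosome 5. Over the 19 autosomes, 5caC and 5fC cytosines per Mb had r of 0.87 (rho 0.91), as a description.

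**Figure D4:**
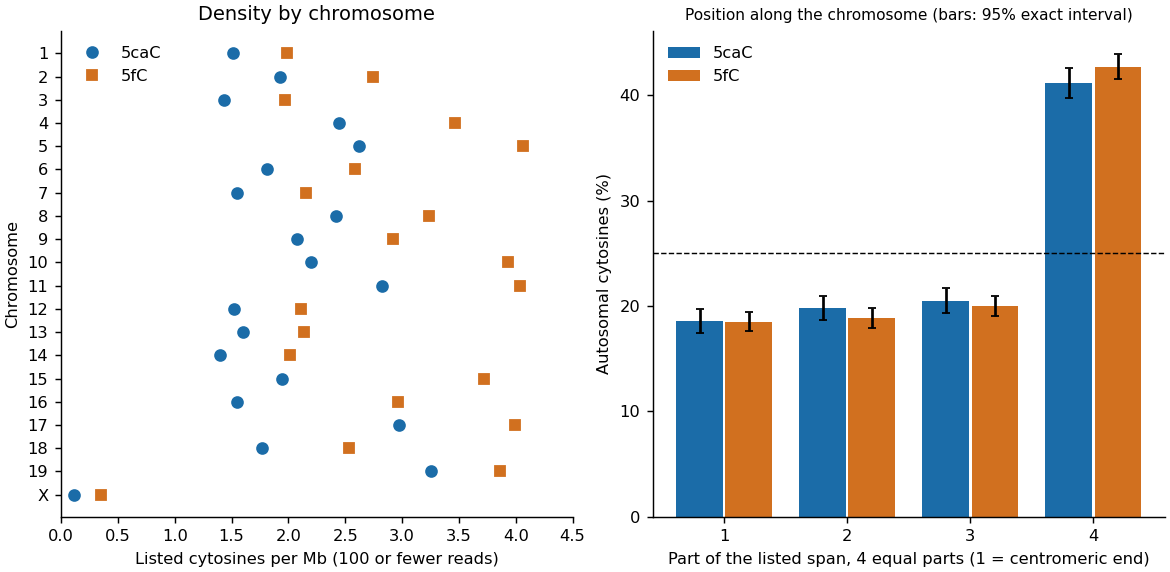
Left, listed cytosines per Mb (x axis) of each chromosome (y axis) for 5caC (circles) and 5fC (squares), both with 100 or fewer reads. Right, percentage of autosomal cytosines (y axis) in each of 4 equal parts of the listed span, with exact 95% intervals and a dashed line at 25%. The last part held 41.1% of 5caC and 42.7% of 5fC cytosines.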

How the data were processed

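DNA captured with antiserum to 5caC from Tdg knockout embryonic stem cells was sequenced after bisulfite, with and without protection, 1 library each, per the labels. Bismark, HOMER and the mm9 build are named, without roles, in the submitters' processing notes. The authors deposited whole-read counts of C and T per cytosine and library, a difference of C fractions, and a p-value, per the file headers. The deposited fraction equals that of the counts within 0.0001 and the deposited p-value equals a two-sided Fisher's exact test within 1%. The sources used here do not say whether copied reads were removed.

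Rows with 4 read counts together at 100 or less were kept. Levels are percentages of C reads. Medians carry order-statistic and shares exact binomial 95% intervals. The smallest listable rise comes from the hypergeometric tables of each cytosine's margins. Pairs were all pairs within a chromosome. Bins of 1 Mb started at position 1. Named sites are, per bisulfite-only class, the 3 deepest; the 5 lowest p-values, CpGs with both cytosines (by smaller read total), most unlike close pairs, largest groups and fullest bins; and the 2 on each side of the limit; examples are printed. The members and lists were chosen with earlier results of these data known. The functions were tested on simulated data. Software was Python 3.11.15 with scipy 1.17.1, matplotlib 3.10.9, pandas 2.3.3 and numpy 2.4.6. The 5fC list served for comparison under the same limit; the floxed libraries were not analysed here.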

Additional observations from a re-analysis of the deposited data

How the results depend on the processing

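No paired analysis was possible because each group had 1 library, and no library could be left out. Setting aside cytosines that are also on the 5fC list was chosen after seeing the data and moved no value out of its interval, nor did removing the limit of 100 reads. With a limit of 60 reads the median rise was 43.8 points, the median protected level 59.1% and the share with a bisulfite-only level of 0 30.1%. With 20 or more reads in each library 683 cytosines were left, with a median rise of 32.1 points, medians of 13.0% without and 50% with protection, 13.9% at a level of 0, 12.2% at 50% or more and 82.6% of bins empty. With a deposited p below 0.01 these were 51.1 points, 6.25%, 60%, 40.1%, 3.61% and 63.1%, and 64.7% of adjacent pairs within 200 bp lay within 10 points. That share was 55.4% as first computed, 60.7% within 50 bp, 50.7% within 1000 bp and 76.0% for a limit of 20 points. On the same strand it was 56.1% and on opposite strands 52.7%. The r of the bisulfite-only level at 11 to 50 bp was 0.42 with 1 cytosine per 10 bp group and 0.47 without cytosines of the 5fC list, settings also added after seeing the data. With 1 cytosine per group 10.5% stood at 50% or more. Empty bins made up 27.4% at 2 Mb and 61.05% at 500000 bp, as bin size sets this share. Depth limits these values, as 85.5% of cytosines fell short of 20 reads in one or both libraries.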

Other observations

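Outside the autosomes, 17 of the 4712 5caC cytosines lay on X, or 0.110 per Mb of its listed span, with 55 5fC cytosines of 100 or fewer reads (0.356 per Mb). Of the 17, 6 lay outside the last Mb before the final listed X cytosine. The median bisulfite-only level of the 17 was 23.5%, with an order-statistic interval of 0 to 38.5, and the median protected level was 69.2%. A further 2 cytosines were on Y or unplaced sequence. At the CpG at X:166418846, in that last Mb, both strands were listed, with 0 of 38 and 0 of 17 bisulfite-only reads unconverted and 10 of 50 and 7 of 31 protected reads, so the strands rose alike, to 20.0% and 22.6%.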
